A study of Mus musculus with 3 samples.

Results

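Methylation of the active Castaneus allele of the Sox2 control region (SCR) was followed read by read in mouse embryonic stem cells (mESCs), in cells where the 129 allele of the same enhancer was silenced and in cells where both alleles were active. The cells were one F1 129/Castaneus hybrid methylation reporter line that carried Snrpn-tdTomato on the 129 allele and Snrpn-eGFP on the Castaneus allele, grown without serum in medium with LIF and inhibitors of MEK and GSK3. They were sorted by FACS in a pair of successive rounds on the fluorescence of both reporters. 129OFF/CASTON cells lacked tdTomato and kept eGFP, 129ON/CASTON cells kept both, and 129ON/CASTOFF cells kept tdTomato and lacked eGFP. DNA from 200000 cells of each population was converted with bisulfite, and the SCR region beside the reporter was amplified and sequenced as 1 library per population, with no replicate.

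A read was used when it had a methylation call at each of 6 CpGs on chromosome 3. On the Castaneus allele, 6472 of 6538 reads from 129OFF/CASTON cells met this rule and 5450 of 5519 reads from 129ON/CASTON cells, of 90117 reads in the whole series. The remaining 66 and 69 reads lacked at least 1 call and were left out. "Active" and "silenced" refer throughout to the reporter signal used for sorting, and no gene expression was measured in these libraries, so the cell type was not checked against its markers. Without replicates, all intervals and p-values cover the counting of reads only and compare the libraries, not the conditions. Reads from PCR without molecular identifiers are also not independent molecules.

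The SCR is a distal enhancer cluster that drives Sox2, a transcription factor gene needed for pluripotency, in mESCs. Mammalian DNA is methylated mainly at the cytosine of CpG dinucleotides, and active enhancers usually carry little of it. The imprinted Snrpn promoter takes on the methylation of the DNA around it, so a reporter driven by it is on where the surrounding region is unmethylated and off where the region is methylated. Bisulfite turns unmethylated cytosine into uracil, which is read as thymine, and leaves methylated cytosine unchanged. Because every call of a read comes from the same strand of DNA, a read shows not only how many CpGs were methylated but which of them were methylated together.

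The stretch that holds the CpGs is printed because the results turn on their spacing. It is the plus strand of the mm10 reference (GRCm38.p6, C57BL/6J) at chr3:34759630-34759830, in lower case with the 6 CpGs in capitals.
SCR stretch: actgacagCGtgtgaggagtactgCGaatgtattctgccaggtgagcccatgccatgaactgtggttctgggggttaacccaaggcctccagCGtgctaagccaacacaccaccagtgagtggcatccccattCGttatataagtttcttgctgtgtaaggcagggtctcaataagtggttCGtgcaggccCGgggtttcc

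From the first to the last in the printed sequence, the CpGs are called CpG 1 (position 34759638), CpG 2 (34759654), CpG 3 (34759722), CpG 4 (34759763), CpG 5 (34759811) and CpG 6 (34759821). They span 183 bp, with steps of 16, 68, 41, 48 and 10 bp between neighbours. CpGs 5 and 6 are the closest pair, separated by 8 bases with 75% G and C, whereas the 46 bases between CpGs 4 and 5 have 37.0%. The CpGs overlap 0 genes of GENCODE M21 and lie within the enhancer that RefSeq annotates as the SCR (chr3:34755799-34762403), 109233 bp after the start of Sox2.

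More Castaneus reads carried methylation when the 129 allele was silenced, and the extra calls came as single CpGs, as short runs and as separated CpGs. At least 1 CpG was methylated on 1787 of 6472 reads from 129OFF/CASTON cells (27.6%, Wilson 95% interval 26.5% to 28.7%). In 129ON/CASTON cells this was 421 of 5450 reads (7.72%, 7.05% to 8.46%). The difference of 19.9 percentage points (Newcombe 95% interval 18.6 to 21.2) was well beyond counting error. The allele was still mostly unmethylated in both libraries, with 72.4% and 92.3% of reads free of methylation at all 6 CpGs.

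In calls, the Castaneus allele carried 41.8 methylated calls per 100 reads in 129OFF/CASTON cells and 8.31 in 129ON/CASTON cells, a surplus of 33.5. Reads with 1 methylated CpG gave 29.5% of the surplus (95% interval 26.4% to 32.5%). Reads whose methylated CpGs formed one unbroken run of at least 2 gave 49.5% (46.0% to 52.9%), the largest part. Reads with several methylated CpGs that were interrupted by an unmethylated one gave the remaining 21.1% (18.1% to 24.0%). Split by how many CpGs were methylated, reads with 2 gave 42.6% of the surplus, reads with 3 gave 20.5%, reads with 4 gave 6.09%, and reads with 5 or 6 gave 1.43%.

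Castaneus reads with several methylated CpGs were rare when both alleles were active. Single methylated CpGs were found on 1102 reads from 129OFF/CASTON cells (17.0%) and 390 from 129ON/CASTON cells (7.16%), 2.38-fold apart. Reads with 2 or more numbered 685 (10.6%) and 31 (0.569%), a difference of 10.0 percentage points (9.25 to 10.8) and 18.6-fold. This rise was of similar size for unbroken runs, on 504 and 22 reads (7.79% and 0.404%, 19.3-fold), and for separated CpGs, on 181 and 9 reads (2.80% and 0.165%, 16.9-fold). Whether these folds differed from one another was not tested. Reads with several methylated CpGs also become more frequent when each CpG is methylated more often. The shares for unrelated CpGs were not computed for these classes, so the folds do not show whether CpGs were methylated together. Of the methylated reads, 61.7% (59.4% to 63.9%) had a single methylated CpG in 129OFF/CASTON cells and 92.6% (89.7% to 94.8%) in 129ON/CASTON cells. On the active 129 allele such rarity was not seen. Reads with 2 or more methylated CpGs were 7.94% of its reads in 129ON/CASTON cells and 7.11% in 129ON/CASTOFF cells.

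With 6 CpGs a methylated read can have 63 patterns, and the share of each in the libraries was compared by Fisher's exact test, two-sided and with Benjamini-Hochberg adjustment over the 63. In 129OFF/CASTON cells 19 patterns had a higher share of reads at an adjusted p below 0.05, 30.2% of those tested, and 21 did so without adjustment. By the same Fisher's exact test 0 patterns (0%) had a lower share, with or without adjustment. The 19 were 4 of the 6 single patterns, 8 of the 15 unbroken runs and 7 of the 42 separated patterns. A total of 47 patterns were seen in 129OFF/CASTON cells and 15 in 129ON/CASTON cells. The 33 patterns seen only in 129OFF/CASTON cells together held 222 reads, 3.43% of that library, and the 1 pattern seen only in 129ON/CASTON cells held 1 read.

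**Figure D1:**
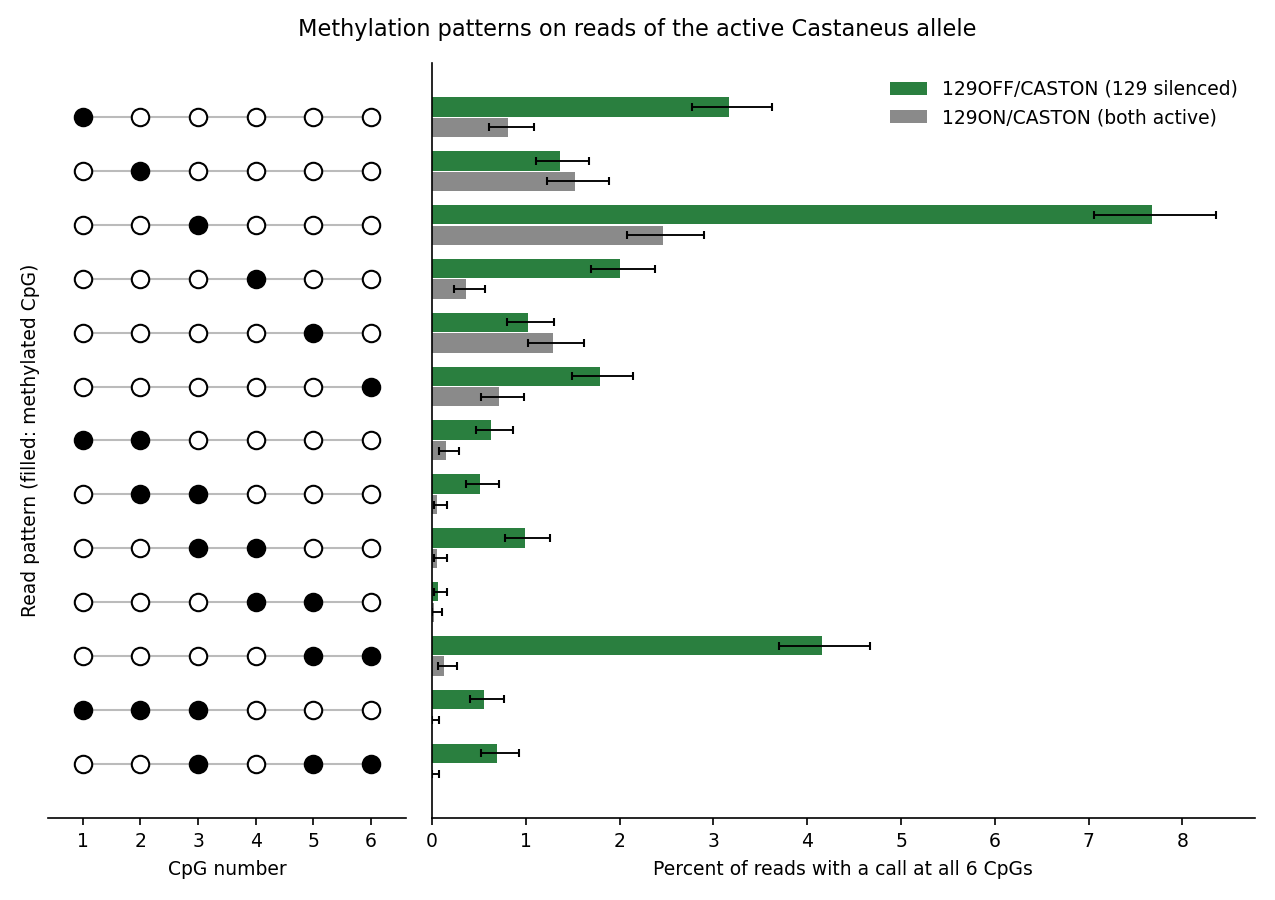
Share of Castaneus reads (percent) with each named pattern of methylated CpGs in 129OFF/CASTON and 129ON/CASTON cells, with Wilson 95% intervals. CpG 3 alone was the most frequent pattern in both libraries, and the pair of CpGs 5 and 6 stood at 4.16% against 0.128%.

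CpG 3 alone was the most frequent methylated pattern of the allele in both populations. It was found on 497 reads from 129OFF/CASTON cells (7.68%) and 134 from 129ON/CASTON cells (2.46%), a difference of 5.22 percentage points (4.45 to 5.99) and 3.12-fold, with an adjusted p of 7.52e-38 by Fisher's exact test. This single pattern gave 15.6% of all extra calls. CpG 1 alone was next among the single patterns in 129OFF/CASTON cells, on 205 reads (3.17%) against 44 (0.807%), 3.92-fold. CpG 4 alone rose from 20 reads (0.367%) to 130 (2.01%), 5.47-fold, and CpG 6 alone from 39 (0.716%) to 116 (1.79%), 2.50-fold. All 4 of these single patterns passed the exact test.

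CpGs 2 and 5 did not share in the rise of single methylated CpGs. CpG 2 alone was on 88 reads from 129OFF/CASTON cells (1.36%) and 83 from 129ON/CASTON cells (1.52%), a difference of -0.163 percentage points (-0.605 to 0.265). CpG 5 alone was on 66 reads (1.02%) and 70 (1.28%), a difference of -0.265 (-0.664 to 0.119). Neither passed Fisher's exact test (adjusted p = 0.881 and 0.510). These intervals leave room for a change of either sign, but their upper bounds lie below the lower bounds for CpGs 1, 3, 4 and 6 alone.

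Both CpGs were nevertheless called methylated on more reads in 129OFF/CASTON cells, in company with others. Whether the Castaneus genome has a CpG at the place of CpG 2 was not established here, and on the silenced Castaneus allele CpG 2 was called methylated on 12 of 1559 reads, so its Castaneus calls may not be methylation of a CpG. CpG 5 was methylated on 462 reads from 129OFF/CASTON cells (7.14%) and 80 from 129ON/CASTON cells (1.47%), and CpG 2 on 261 (4.03%) and 95 (1.74%). With both alleles active, 87.5% of the Castaneus reads methylated at CpG 5 were methylated nowhere else, as were 87.4% of those methylated at CpG 2. In 129OFF/CASTON cells these shares were 14.3% and 33.7%. A methylated neighbour accompanied CpG 5 on 84.0% of its methylated reads in 129OFF/CASTON cells against 11.3% in 129ON/CASTON cells, and CpG 2 on 58.2% against 11.6%.

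The other CpGs were also alone on a smaller share of their methylated reads in 129OFF/CASTON cells. That share also depends on how often the remaining CpGs were methylated. CpG 3 was methylated on 783 reads from 129OFF/CASTON cells (12.1%), the highest level of the 6 CpGs there, and it was alone on 63.5% of them, against 91.2% of its 147 methylated reads in 129ON/CASTON cells. CpG 1 was alone on 56.6% against 74.6% of its methylated reads, CpG 4 on 45.1% against 80.0%, and CpG 6 on 21.1% against 83.0%. In 129OFF/CASTON cells methylation at CpG 3 thus came mostly alone and methylation at CpGs 5 and 6 mostly together, whereas with both alleles active each of the 6 CpGs was mostly methylated alone.

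**Figure D2:**
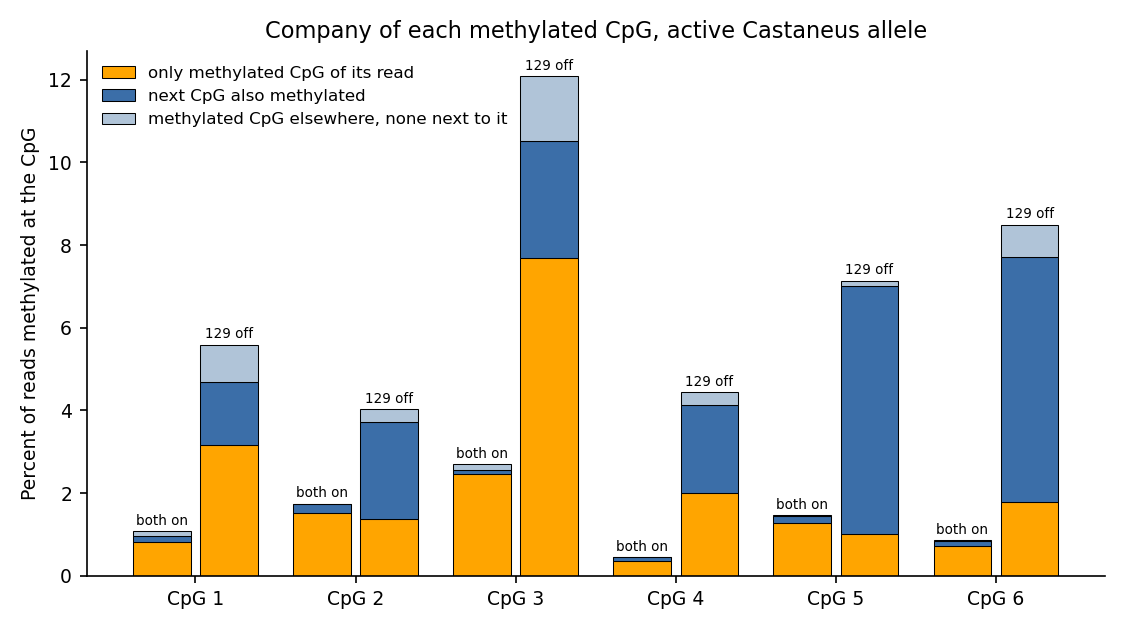
Share of Castaneus reads (percent) methylated at each CpG, divided into reads where it was the only methylated CpG, reads with a methylated neighbour, and reads with methylation further away only, for 129ON/CASTON and 129OFF/CASTON cells. The part alone at CpG 5 was 1.28% and 1.02% of reads while its total went from 1.47% to 7.14%.

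The pair of CpGs 5 and 6, with the other 4 CpGs unmethylated, gave the largest part of the extra calls of any pattern, 24.0%. It was on 269 reads from 129OFF/CASTON cells (4.16%) and 7 from 129ON/CASTON cells (0.128%), a difference of 4.03 percentage points (3.55 to 4.55) and 32.4-fold, with an adjusted p of 2.60e-60 by Fisher's exact test. In 129OFF/CASTON cells CpG 6 was methylated on 82.9% (79.2% to 86.1%) of the reads methylated at CpG 5, and CpG 5 on 69.6% (65.7% to 73.3%) of those methylated at CpG 6. In 129ON/CASTON cells these shares were 8.75% (4.30% to 17.0%) and 14.9% (7.41% to 27.7%). The phi coefficient of the pair, 1 for CpGs that are always in the same state and 0 for unrelated ones, was 0.74 and 0.10.

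A second measure of the same pair differed less between the libraries. The share of reads methylated at both CpGs was divided by the product of the shares methylated at each, which is the value for unrelated CpGs. This ratio was 9.76 in 129OFF/CASTON cells (5.92% of reads against a product of 0.607%) and 10.1 in 129ON/CASTON cells (0.128% against 0.0127%). The latter rests on 7 reads, and its interval for the share methylated at both, 0.0622% to 0.265%, lies above the product. CpGs 5 and 6 were therefore methylated together more often than unrelated CpGs in both libraries.

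The remaining neighbour pairs were less frequent. CpGs 3 and 4 only were methylated on 64 reads from 129OFF/CASTON cells (0.989%) and 3 from 129ON/CASTON cells (0.0550%). The pair of CpGs 1 and 2 was on 41 reads (0.633%) and 8 (0.147%), 4.32-fold, and CpGs 2 and 3 on 33 (0.510%) and 3 (0.0550%). All 3 pairs passed Fisher's exact test (adjusted p = 1.15e-12, 0.000122 and 1.30e-05). CpGs 4 and 5 only were on 4 reads (0.0618%) and 1 read, and did not pass the exact test (adjusted p = 0.834).

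The step from CpG 4 to CpG 5 was thus the one that runs crossed least. Counting every read, whatever its other CpGs, both sides of this step were methylated on 44 reads from 129OFF/CASTON cells, against 99 for the step from CpG 1 to 2, 99 from CpG 2 to 3, 110 from CpG 3 to 4 and 383 from CpG 5 to 6. By number of reads the order did not follow distance, since the step of 68 bp from CpG 2 to 3 was crossed on more reads than that of 48 bp from CpG 4 to 5. That exception rests on CpG 2, whose Castaneus calls may not be methylation of a CpG. Read numbers also depend on how often each CpG was methylated. The phi coefficients along the allele were 0.29, 0.16, 0.17, 0.07 and 0.74. For CpGs 1 and 3, 84 bp apart with CpG 2 passed over, phi was 0.07. Where CpGs 5 and 6 were both methylated, CpG 4 was methylated on 39 of 383 reads (10.2%, 7.54% to 13.6%), and none of CpGs 1 to 4 was methylated on 70.2%.

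Patterns of 3 CpGs were found on reads from 129OFF/CASTON cells and on few from 129ON/CASTON cells. CpGs 3, 5 and 6 were methylated together, without the others, on 45 reads (0.695%) from 129OFF/CASTON cells and on 0 of 5450 from 129ON/CASTON cells, which allows a share of up to 0.0550% at 3 counts and makes the pattern at least 12.6-fold higher (adjusted p = 1.83e-11, Fisher's exact test). The run of CpGs 1, 2 and 3 was on 36 reads (0.556%) and 0, at least 10.1-fold higher at the same limit (adjusted p = 2.63e-09, Fisher's exact test). These patterns gave 6.23% and 4.98% of the extra calls. Among the rarer patterns, CpGs 4, 5 and 6 were on 18 reads, CpGs 2, 3 and 4 on 16 and CpGs 3, 4, 5 and 6 on 15 from 129OFF/CASTON cells, and each was on 0 from 129ON/CASTON cells.

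The pattern of CpGs 3, 5 and 6 joined the most methylated CpG with the most frequent pair across an unmethylated CpG 4. Methylation of CpG 3 and that of CpGs 5 and 6 were only weakly related in 129OFF/CASTON cells. CpGs 3 and 5 were both methylated on 1.11% of reads against a product of 0.864% (phi 0.03), and CpGs 3 and 6 on 1.47% against 1.03% (phi 0.05). Methylation at opposite ends of the amplicon was close to unrelated, with a phi of 0.01 for CpGs 1 and 6 and -0.01 for CpGs 1 and 5.

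Reads methylated at 5 or 6 CpGs were nearly absent from the active Castaneus allele. In 129OFF/CASTON cells 2 reads were methylated at all but CpG 4, 2 at all but CpG 3, 1 at all but CpG 5 and 1 at all 6, and there were 0 such reads from 129ON/CASTON cells. The fully methylated read made up 0.0560% of the methylated Castaneus reads in 129OFF/CASTON cells. On the silenced 129 allele of the same library, 39.5% of methylated reads were methylated at all 6 CpGs. The Castaneus share differed by -39.5 percentage points (-40.3 to -38.7). On the silenced Castaneus allele, which was almost unmethylated at CpG 2, 2 of 1475 methylated reads (0.136%) were methylated at all 6, and the active allele differed by -0.0796 percentage points (-0.440 to 0.199). At 5 or 6 CpGs the silenced and active Castaneus alleles were far apart. Such reads were 544 on the silenced Castaneus allele (34.9% of all its reads), 540 of them methylated at all but CpG 2. The share was 63.2% on the silenced 129 allele and 0.0927% on the active Castaneus allele of 129OFF/CASTON cells. Such reads were also few on the active 129 allele, 0.920% in 129ON/CASTON cells and 0.484% in 129ON/CASTOFF cells.

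Runs were counted as unbroken stretches of methylated CpGs on a read. The 1787 methylated reads from 129OFF/CASTON cells held 1971 runs with a mean of 1.37 CpGs, and the 421 from 129ON/CASTON cells held 430 runs with a mean of 1.05. Runs of 2 or more CpGs were 608 of 1971 (30.8%, 28.8% to 32.9%) and 23 of 430 (5.35%, 3.59% to 7.90%), a difference of 25.5 percentage points (22.3 to 28.2). Of the 608, 344 covered CpGs 5 and 6 alone. Runs of 3 or more numbered 102 (5.18%) and 0, and runs of 4 or more numbered 23 (1.17%) and 0.

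Most runs were short in base pairs as well. In 129OFF/CASTON cells 10.7% of runs reached at least 41 bp from first to last CpG, 4.01% (79 runs) at least 84 bp, 2.03% (40 runs) at least 99 bp, and 0.406% (8 runs) at least 125 bp, with 1 run over the whole 183 bp. With both alleles active the longest Castaneus runs were 3 that covered CpGs 2 and 3, over 68 bp. The silenced alleles differed from each other in this respect. On the silenced 129 allele of the 129OFF/CASTON library 29.1% of runs covered all 183 bp, and 84.9% had 2 or more CpGs. On the silenced Castaneus allele, where CpG 2 was rarely called methylated, 43.9% of runs had 2 or more CpGs and 24.3% reached at least 84 bp, but 0.146% (4 runs) reached at least 109 bp, against 1.27% (25 runs) on the active Castaneus allele of 129OFF/CASTON cells, and 0.0729% (2 runs) covered all 183 bp. Any run of at least 109 bp has to include CpG 2, whose Castaneus calls may not be methylation of a CpG. The 38 active Castaneus runs over CpGs 1 to 3 (84 bp) in 129OFF/CASTON cells also include it. The longest runs without CpG 2 on that allele were 15 over CpGs 3 to 6 (99 bp). On Castaneus reads from 129ON/CASTON cells they were 2 over CpGs 4 and 5 (48 bp).

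Methylation on one read could also reach further than its runs, with unmethylated CpGs in between. The distance from the first to the last methylated CpG was at least 10 bp on 38.3% of methylated Castaneus reads from 129OFF/CASTON cells, at least 84 bp on 13.8%, at least 109 bp on 5.15%, and 183 bp on 1.90%. In 129ON/CASTON cells these shares were 7.36%, 2.14%, 0.475% and 0%. The differences at 10, 84 and 183 bp were 31 percentage points (27.3 to 34.1), 11.7 (9.27 to 13.6) and 1.90 (0.851 to 2.65). Of the 34 reads from 129OFF/CASTON cells that were methylated at both CpG 1 and CpG 6, 1 was methylated without a gap.

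**Figure D3:**
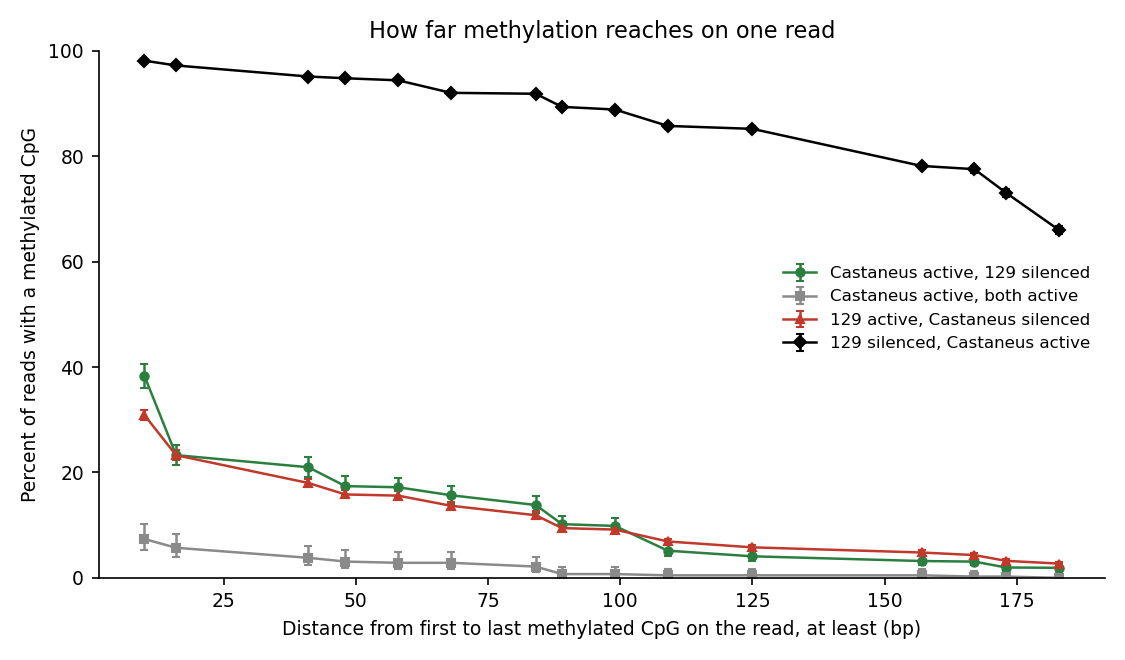
Percent of methylated reads whose first and last methylated CpGs lay at least the given distance apart (bp), with Wilson 95% intervals, for the active Castaneus allele beside the silenced 129 allele (green), the active Castaneus allele with both active (grey), the active 129 allele beside the silenced Castaneus allele (red) and the silenced 129 allele (black). At 183 bp the share was 1.90% in the first of these and 66.0% on the silenced 129 allele.

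From first to last methylated CpG, the reach on the active Castaneus allele was closer to that of the active 129 allele than to that of the silenced alleles, but differed from it at some distances. On the active 129 allele of 129ON/CASTOFF cells, 30.9% of methylated reads reached at least 10 bp, 11.9% at least 84 bp and 2.70% the whole 183 bp. The Castaneus shares in 129OFF/CASTON cells differed from these by 7.46 percentage points (5.02 to 9.93), 1.94 (0.261 to 3.75) and -0.801 (-1.45 to 0.0110). With both alleles active, the active 129 allele had larger shares at long distances, 9.17% at 109 bp, 8.16% at 125 bp and 3.71% at 183 bp. The Castaneus shares in 129OFF/CASTON cells (5.15%, 4.09% and 1.90%) differed from these by -4.02 percentage points (-5.24 to -2.69), -4.08 (-5.19 to -2.85) and -1.81 (-2.56 to -0.929). The silenced 129 allele was at 66.0% and the silenced Castaneus allele at 57.6% at 183 bp, and the active Castaneus allele of 129OFF/CASTON cells differed from the latter by -55.7 points (-58.3 to -53.1).

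Beside methylated CpGs 5 and 6, CpG 4 was unmethylated more often on the active Castaneus allele of 129OFF/CASTON cells than on any other allele with enough reads to compare. On that allele none of CpGs 1 to 4 was methylated on 70.2% of the reads methylated at CpGs 5 and 6. The share is therefore not a count of gaps. Among reads methylated at both CpGs 5 and 6, CpG 4 was methylated on 10.2% there, as given above, and on 34.5% (31.9% to 37.3%) of those from the active 129 allele of 129ON/CASTOFF cells, a difference of -24.4 percentage points (-28.2 to -20.0). The share was 66.1% on the active 129 allele of 129ON/CASTON cells, 86.4% on the silenced 129 allele and 86.0% on the silenced Castaneus allele. Of 129ON/CASTON cells, 7 Castaneus reads were methylated at CpGs 5 and 6 and 0 of them at CpG 4, too few to place the share.

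CpG 2 needs a separate account, because the silenced Castaneus allele was almost unmethylated there. Among reads methylated at both CpGs 1 and 3, CpG 2 was methylated on 4 of 800 from the silenced Castaneus allele and on 93.1% of 9922 from the silenced 129 allele. On the active Castaneus allele of 129OFF/CASTON cells it was methylated on 46 of 79 (58.2%, 47.2% to 68.5%), 57.7 percentage points (46.7 to 68.0) above the silenced Castaneus allele and different from the silenced 129 allele by -34.9 points (-45.9 to -24.7). In 129ON/CASTON cells it was 0 of 6 such Castaneus reads. The run of CpGs 1, 2 and 3 alone, at 0.556% of reads on the active Castaneus allele of 129OFF/CASTON cells, was at 0.0641% (1 read) on the silenced Castaneus allele and 2.25% on the silenced 129 allele.

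Whether reads of the 129 allele, or reads joined from both alleles during PCR, had a part in the Castaneus patterns, with or without CpG 2, was not tested. Patterns with CpG 2 gave 19.6% of the extra calls, among them CpGs 1 and 2 with 2.91%, CpGs 2 and 3 with 2.72%, and CpGs 1, 2 and 3 with 4.98%. The other 80.4% came from patterns without CpG 2. Patterns without CpG 2 were led by the pair of CpGs 5 and 6 and by CpG 3 alone. On the silenced 129 allele these were on 146 (0.885%) and 33 (0.200%) of 16505 reads, and on the active Castaneus allele of the same library on 4.16% and 7.68%. The 129 shares do not show which patterns reads joined from both alleles would have.

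The active 129 allele allowed the same comparison in the other direction, with 36951 complete reads from 129ON/CASTOFF cells and 21740 from 129ON/CASTON cells. Both comparisons use the 129ON/CASTON library but different reads of it. On the active 129 allele the share of reads with a methylated CpG was 23.0% beside the silenced Castaneus allele and 25.9% with both alleles active, a change of -2.90 percentage points against 19.9 on Castaneus. With CpG 2 counted, the share of reads with a methylated CpG thus did not rise on the active 129 allele. CpG 2 alone changed by -3.47 points there, a larger fall than that of all methylated reads. The fall therefore rests on calls at CpG 2, and the share of reads methylated at any other CpG did not fall. The size of the change with CpG 2 left out was not computed.

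Individual patterns, however, moved the same way on both active alleles. CpG 3 alone rose on the active 129 allele from 2.03% to 4.18% of reads, 2.06-fold, and the pair of CpGs 5 and 6 from 0.446% to 1.75%, 3.93-fold. The pair of CpGs 3 and 4 rose from 0.179% to 0.501%. Each of these rises was smaller in percentage points than on the Castaneus allele, by 3.07 (95% interval 2.26 to 3.89) for CpG 3 alone and by 2.72 (2.20 to 3.24) for CpGs 5 and 6.

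CpGs 1 and 2 behaved differently on the 129 allele. CpG 2 alone was the pattern that fell most among those compared on the active 129 allele, from 8.97% to 5.50%, and CpGs 1 and 2 together fell from 3.04% to 1.21%. On the Castaneus allele the latter pair rose, and CpG 2 alone did not pass the test. With both alleles active, CpG 2 alone was called methylated on 8.97% of active 129 reads against 1.52% of active Castaneus reads. Whether the Castaneus genome has a CpG there was not established, so these shares may not compare methylation of the same CpG.

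**Figure D4:**
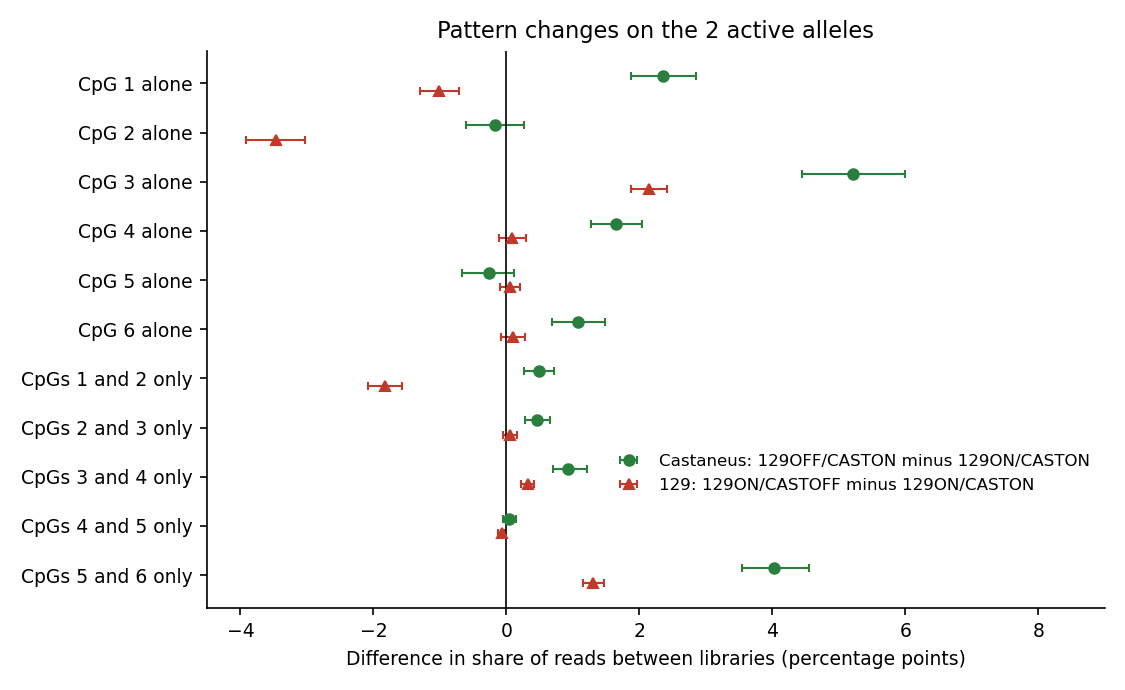
Change in the share of reads with each single CpG or neighbour pair (percentage points, 95% intervals), for the active Castaneus allele (129OFF/CASTON minus 129ON/CASTON, green) and the active 129 allele (129ON/CASTOFF minus 129ON/CASTON, red). CpG 3 alone and the pair of CpGs 5 and 6 lie right of 0 on both alleles, and CpG 2 alone changed by -3.47 points on the 129 allele.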

How the data were processed

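The authors converted DNA of each sorted population with bisulfite, amplified the SCR region beside the reporter, sequenced it on a MiSeq, aligned the reads to mm10 with Bismark (version 0.22.3), split them by allele at 2 polymorphic bases, and deposited 1 call per read and CpG, methylated or unmethylated. Alleles were taken as deposited. The CpGs, patterns and comparisons were chosen with earlier results of these data known.

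Reads with a call at all 6 CpGs were sorted into patterns with Python 3.11.15 and numpy 2.4.6. Intervals and two-sided Fisher's exact tests with Benjamini-Hochberg adjustment used scipy 1.17.1, and figures used matplotlib 3.10.9. The Fisher's exact tests with their adjustment, but not the intervals, were tested on simulated data. Shares have Wilson intervals, differences between shares Newcombe intervals, shares of the surplus delta-method intervals, and differences between alleles Wald intervals, all at 95%. A count of 0 was given the limit of 3 counts. The patterns named were the 6 single CpGs, the 5 neighbour pairs, the 10 patterns with the largest difference and every pattern with 5 or 6 methylated CpGs. The remaining patterns and conditional shares in the text were chosen after their values were seen. Depth was 1559 to 36951 complete reads per library and allele.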

Additional observations from a re-analysis of the deposited data

Results flagged for a closer look

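For 13 of 14 pattern classes compared, the change on the active Castaneus allele (129OFF/CASTON minus 129ON/CASTON) differed from that on the active 129 allele (129ON/CASTOFF minus 129ON/CASTON) by a test of the difference itself (Wald test over reads, adjusted p from 6.43e-197 to 0.0101), and each was higher on Castaneus. The difference was 22.8 percentage points for any methylated CpG, 8.23 for one run of 2 or more CpGs and 2.61 for separated CpGs. The 129 part of the first, a change of -2.90 points, rests on calls at CpG 2. For single CpGs it was 3.37 at CpG 1, 3.30 at CpG 2, 3.07 at CpG 3, 1.55 at CpG 4 and 0.973 at CpG 6. For neighbour pairs it was 2.31 for CpGs 1 and 2, 0.398 for CpGs 2 and 3, 0.613 for CpGs 3 and 4, 0.116 for CpGs 4 and 5 and 2.72 for CpGs 5 and 6. At CpG 2 alone, at CpGs 1 and 2 and at CpGs 4 and 5, the difference came mostly from a fall on the 129 allele, which changed by -3.47, -1.82 and -0.0728 points. The Castaneus change at CpGs 4 and 5 was 0.0435 points (-0.0500 to 0.142). CpG 5 alone did not pass, with -0.326 (-0.742 to 0.0888). With 1 library per population, differences between libraries and between conditions cannot be told apart.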

How the results depend on the processing

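Of 29 values recomputed under alternatives, 22 moved by less than their interval or by less than 1.5 times for counts, and none reversed. With CpG 2 left out, single CpGs gave 35.5% of the extra calls and separated CpGs 16.7%. Without the reads methylated at CpG 2, an alternative chosen after seeing the data, single CpGs gave 37.5% and unbroken runs 43.7%. Where a run could hold 1 unmethylated CpG, runs gave 62.2% and separated CpGs 8.38%. With a difference of at least 0.5 percentage points required, 8 patterns in place of 19 were higher and 0 lower. The rise in reads with a methylated CpG ranged from 18.5 to 20.0 points. Alternatives by sequencing tile were not run, since the reads carry no tile. No paired analysis was possible because each population had 1 library.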
